A study of Mus musculus with 16 samples.

Results

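The 10 genes described here encode costimulatory molecules of T cells. Of the 10, 8 are receptors: 7 of the tumour necrosis factor (TNF) receptor superfamily (Tnfrsf4, Tnfrsf9, Tnfrsf18, Tnfrsf1b, Tnfrsf14, Tnfrsf25 and Cd27) and Cd28, which belongs to the immunoglobulin superfamily. The other 2, Cd40lg and Tnfsf8, are ligands of the TNF family. They were picked by symbol from a table of RNA sequencing read counts for 23479 genes, all 10 were found, and all 10 were among the 18430 genes that passed the expression filter. RNA came from CD4 T cells of the spleen of C57BL/6 mice, isolated by removing other cells with magnetic beads. Control mice carried no tumour (day 0, 5 libraries), and the other mice had received Eu-Myc lymphoma cells and were sampled 7 days (7 libraries) or 14 days (4 libraries) later. Eu-Myc cells are mouse B lymphoma cells in which an immunoglobulin heavy chain enhancer drives the Myc oncogene, so the tumour was transplanted and not native to these hosts. The labels give no sex, no age and no pooling of animals, and each library was taken as 1 mouse. The comparisons ask how the transcripts stood early and late after transplant.

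A T cell needs a second signal beside that of its antigen receptor to divide, survive and become an effector. CD28 gives it on naive cells when it binds CD80 or CD86 on an antigen-presenting cell. The TNF receptors named here act mostly later: their ligands cluster them, TRAF adaptor proteins bind their cytoplasmic tails, and NF-kappaB and survival genes follow. OX40 (Tnfrsf4), 4-1BB (Tnfrsf9), GITR (Tnfrsf18) and TNFR2 (Tnfrsf1b) are induced on activated T cells and are also carried by Foxp3+ regulatory T cells, whereas CD27 and CD28 are already present on naive cells. CD40 ligand and CD30 ligand are made by the T cell itself.

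Each library held 14493764 to 27340070 gene counts, and levels are CPM, counts relative to the library total, scaled by TMM, edgeR's correction for library composition. Each member had between 260 and 13545 reads in a library. Mean Cd4 levels were 1261 ± 329 (control), 1531 ± 216 (day 7) and 1194 ± 204 CPM (day 14, SD), while Cd8a and Cd8b1 together reached at most 17.6 CPM and the 9 B cell markers together at most 85.1 CPM in any library. Several libraries stood apart. Control libraries 1 and 2 held 772 and 2364 CPM of 10 neutrophil transcripts and 2000 and 4547 CPM of 12 mitosis transcripts, against at most 46.7 and 570 CPM in the other controls. Day 14 library 4 held 1388 CPM of the neutrophil and 2226 CPM of the mitosis transcripts. Of 7 MHC class II genes 4 were called lower at day 14 against control, with summed levels of 41.6 to 90.0 CPM at day 14, against 67.7 to 564 CPM in controls. The 9 macrophage and monocyte markers summed to 27.2 to 98.9 CPM at day 14, against 8.63 to 599 CPM in controls. The part of these cells in the results was not tested. Abundant Y-linked transcripts marked control libraries 1 and 2, libraries 6 and 7 of day 7 and library 4 of day 14. Day 14 library 1 held 0 CPM of Y-linked transcripts and only 9.32 CPM of the X-linked RNA Xist. The other libraries with Y-linked transcripts below 10 CPM held at least 1625 CPM of Xist. The share of reads outside gene models averaged 51.1 ± 3.65% in controls, 58.9 ± 5.27% at day 7 and 63.2 ± 6.60% at day 14, so it moved with the groups.

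The 4 receptors induced by activation were highest at day 14. Tnfrsf4 encodes OX40, which prolongs the survival of activated CD4 T cells. In controls 1 to 5 it stood at 68.0, 43.4, 47.6, 32.2 and 35.8 CPM, at day 7 between 31.7 and 48.0 CPM with a median of 41.0 CPM, and at day 14 in libraries 1 to 4 at 98.6, 76.7, 107 and 98.1 CPM. The highest of the earlier values, control library 1, lay below the lowest day 14 library. Tnfrsf4 rose at day 14 by 1.07 ± 0.17 on the log2 scale against control (SE, edgeR adjusted p = 0.00812) and by 1.25 ± 0.16 against day 7 (adjusted p = 0.00126), which is 2.09-fold and 2.37-fold. Among all genes tested it ranked 17 by p against control and 4 against day 7.

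Tnfrsf18 encodes GITR, abundant on regulatory T cells, and lies beside Tnfrsf4 on chromosome 4, with 9551 bases and 0 protein-coding genes between them. Its control values were 50.0, 30.3, 58.1, 39.0 and 45.1 CPM, its day 7 values 37.4 to 48.2 CPM (median 40.8 CPM), and its day 14 values 54.8, 61.3, 78.9 and 66.2 CPM. Control library 3 reached into the day 14 range, and no day 7 library did. Tnfrsf18 rose at day 14 against day 7 by 0.65 ± 0.14 (edgeR adjusted p = 0.0394). Against control the log2 change was 0.55 ± 0.16 and missed the threshold of 0.05 (adjusted p = 0.0578). The ratio of Tnfrsf4 to Tnfrsf18 reads was taken within each library. It averaged 1.05 ± 0.321 in controls, 0.963 ± 0.0658 at day 7 and 1.47 ± 0.238 at day 14 (SD). The lowest day 14 ratio, 1.25, lay above the highest of day 7, 1.04, but below the highest of controls, 1.43. Whether the neighbours differed between groups by the same amount was not tested.

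Tnfrsf1b encodes TNFR2, the TNF receptor that lacks a death domain. Control values were 68.8, 60.9, 51.6, 46.3 and 48.3 CPM, day 7 values ran from 35.0 to 49.8 CPM with a median of 44.3 CPM, and day 14 values were 75.4, 68.4, 84.5 and 86.8 CPM. Day 14 library 2 lay just below control library 1, and every day 14 library lay well above every day 7 library. It rose at day 14 by 0.87 ± 0.12 against day 7 (edgeR adjusted p = 0.00244) and by 0.51 ± 0.13 against control (adjusted p = 0.0417). The call against control was lost in 8 of the 16 omissions of 1 library (libraries 1, 3 and 4 of day 14, libraries 2 and 6 of day 7, and the controls 3, 4 and 5), with log2 changes of 0.46 to 0.61 and an adjusted p of at most 0.142. At day 7 it was the member with the smallest p against control, with a log2 change of -0.36 ± 0.11 that was not called (adjusted p = 0.0895). Without control libraries 1 and 2, the highest controls for Tnfrsf1b, that change was -0.18 (adjusted p = 0.526).

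Tnfrsf9 encodes 4-1BB, an activation-induced costimulator best known on CD8 T cells. In the 5 controls it stood at 31.9, 21.2, 29.0, 22.4 and 28.2 CPM. Day 7 libraries ran from 17.6 to 30.5 CPM around a median of 23.9 CPM, and day 14 libraries held 30.0, 44.9, 47.8 and 36.8 CPM. Library 1 of day 14 overlapped both earlier groups, while the other day 14 libraries lay above them. The rise against day 7 was 0.72 ± 0.16 on the log2 scale (edgeR adjusted p = 0.041), and against control a log2 change of 0.59 ± 0.18 was not called (adjusted p = 0.0702). Tnfrsf9 lies on the strand opposite to Camta1 for 28781 bases and Tnfrsf18 overlaps the antisense gene Gm16008 over its 2732 bases. The strand setting of the counting is not known here, so some of their reads could belong to the gene on the other strand.

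**Figure D1:**
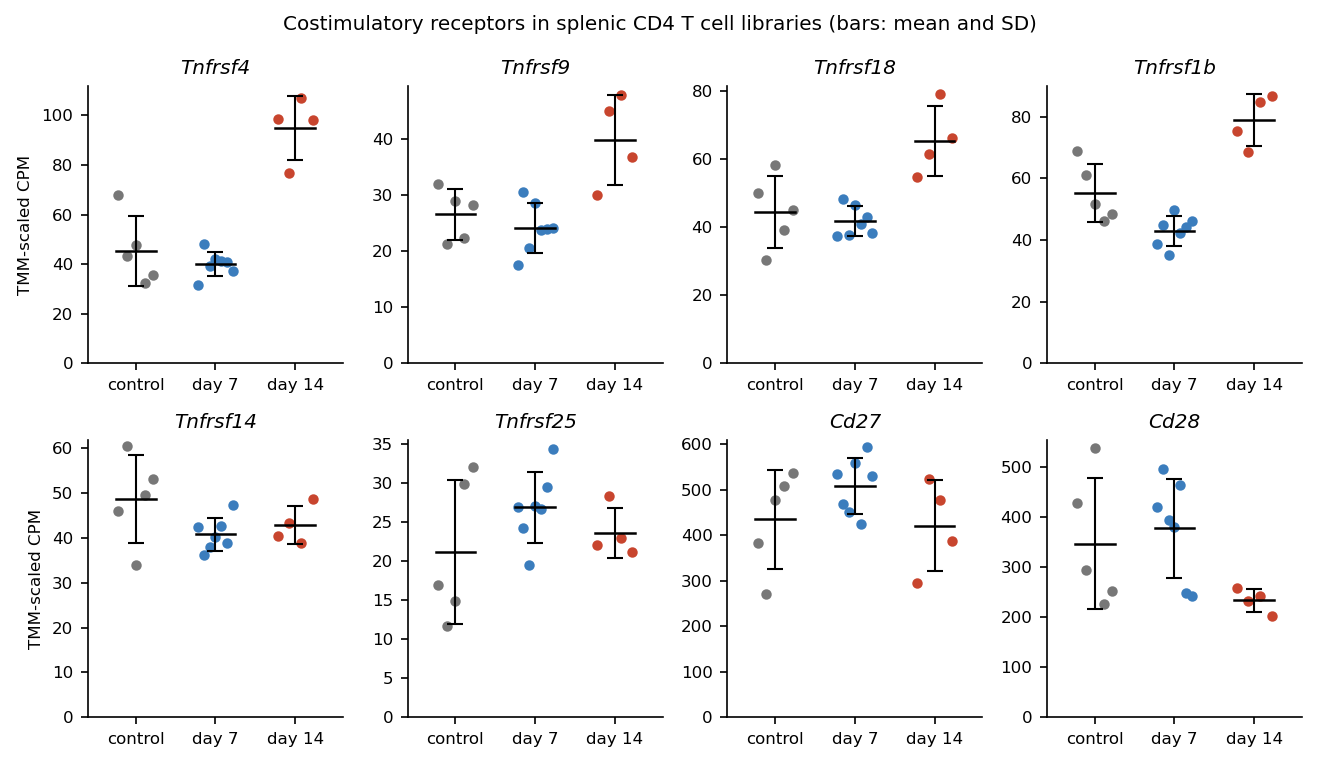
TMM-scaled CPM of the 8 receptors in each library (points) of control, day 7 and day 14 mice, with bars for the mean and SD of 5, 7 and 4 libraries. Tnfrsf4, Tnfrsf9, Tnfrsf18 and Tnfrsf1b have their highest mean at day 14, Cd28 its lowest.

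All TNF receptors of the list except Cd27, namely Tnfrsf1b, Tnfrsf9, Tnfrsf25, Tnfrsf14, Tnfrsf4 and Tnfrsf18, and the ligand Tnfsf8 lie on chromosome 4. Promoter windows of 250 bases, upstream of transcript starts in RefSeq (GRCm38.p6), were given for 8 of the 10 members and none was used for Cd28 or Cd40lg. The windows of Tnfrsf4 and Tnfrsf1b are shown because these receptors had the smallest p of the members at day 14 against day 7. Capitals mark matches on either strand to GGGNNNNNCC, a loose form of the NF-kappaB pattern in which any base may fill each N. They overlap here, and no stricter NF-kappaB pattern was searched. The Tnfrsf1b window (chr4:145246871-145247120, minus strand) holds 3 such matches and the Tnfrsf4 window (chr4:156013445-156013694, plus strand) holds 0.
Tnfrsf1b: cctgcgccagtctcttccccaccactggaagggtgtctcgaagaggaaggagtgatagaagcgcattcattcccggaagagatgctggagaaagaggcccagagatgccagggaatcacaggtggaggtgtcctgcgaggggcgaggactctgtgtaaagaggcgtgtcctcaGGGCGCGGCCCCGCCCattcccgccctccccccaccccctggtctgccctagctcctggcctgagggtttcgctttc
Tnfrsf4: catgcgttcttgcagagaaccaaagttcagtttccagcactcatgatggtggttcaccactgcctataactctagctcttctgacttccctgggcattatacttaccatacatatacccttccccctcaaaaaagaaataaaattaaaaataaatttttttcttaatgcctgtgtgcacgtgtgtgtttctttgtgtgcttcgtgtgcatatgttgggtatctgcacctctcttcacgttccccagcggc
The same pattern occurs in 45.8% of all 32851 RefSeq promoter windows of this length, so a match is common. Base composition also differs between the 2 windows, with 62.8% G and C in that of Tnfrsf1b and 42.8% in that of Tnfrsf4. A second Tnfrsf9 start has GGGGATTTCC at 43 bases and the AP-1 pattern TGANTCA, as TGAGTCA, at 15 bases before it. The other Tnfrsf9 window held 0 matches to either pattern, as did those of Tnfrsf18 and Tnfsf8. Members called in no comparison also matched the NF-kappaB pattern. Their counts were 3 and 2 in the windows of Tnfrsf25, 2 in that of Cd27 and 1 in that of Tnfrsf14. The AP-1 pattern is found in 6.75% of windows. These matches describe letters and were not tested as binding sites.

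The other 3 TNF receptors were not called in any comparison. Tnfrsf14 encodes HVEM, which binds LIGHT and also the inhibitory receptor BTLA. In controls its levels were 45.9, 60.4, 33.8, 49.6 and 53.1 CPM. Day 7 libraries held 36.1 to 47.2 CPM (median 40.2 CPM) and day 14 libraries 40.3, 43.3, 38.9 and 48.5 CPM. All 3 groups overlapped, and the log2 change at day 14 against control was -0.18 ± 0.14, with a 95% interval from -0.47 to 0.11. Tnfrsf25 encodes DR3, the receptor of TL1A. It stood at 17.0, 11.8, 14.9, 30.0 and 32.1 CPM in controls, so this group alone spanned nearly the whole range of the data, while day 7 libraries held 19.5 to 34.4 CPM (median 27.0 CPM) and day 14 libraries 22.1, 28.4, 22.9 and 21.2 CPM. The interval of its log2 change at day 14 against control ran from -0.35 to 0.67.

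Cd27 encodes a receptor that naive T cells already carry and that binds CD70. Controls held 383, 270, 477, 507 and 535 CPM, day 7 libraries 424 to 593 CPM with a median of 530 CPM, and day 14 libraries 296, 522, 476 and 388 CPM. The lowest values were those of control library 2 and day 14 library 1, and the groups overlapped. At day 14 the log2 change was -0.05 ± 0.18 against control and -0.27 ± 0.17 against day 7 (edgeR adjusted p = 0.883 and 0.498). Cd27 lies opposite to Vamp1 over all its 4389 bases, and reads of the 2 genes cannot be told apart if strand was not used.

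Cd28, the costimulatory receptor of naive T cells, varied within the control and day 7 groups. Controls stood at 428, 294, 538, 226 and 252 CPM. At day 7, libraries 1 to 5 held 420, 497, 395, 380 and 464 CPM, and libraries 6 and 7 held 249 and 242 CPM. At day 14 the values were 259, 233, 242 and 203 CPM. Day 14 library 4 lay below every earlier library, and the other day 14 libraries lay close to control libraries 4 and 5 and day 7 libraries 6 and 7. The log2 change at day 14 was -0.57 ± 0.24 against control and -0.69 ± 0.23 against day 7, and neither was called (edgeR adjusted p = 0.178 and 0.152). A fit of only the day 14 and day 7 libraries called it lower (log2 change -0.68, adjusted p = 0.0475). Among libraries with Y-linked transcripts below 10 CPM, Cd28 averaged 245 CPM in 3 libraries at day 14 and 431 CPM in 5 at day 7, and a fit to such libraries alone called it lower (log2 change -0.81, adjusted p = 0.0376). In the libraries with abundant Y-linked transcripts it was 203 CPM at day 14 (1 library) and 246 CPM at day 7 (2 libraries). The 3 day 14 libraries below 10 CPM include library 1, which was low in Xist.

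**Figure D2:**
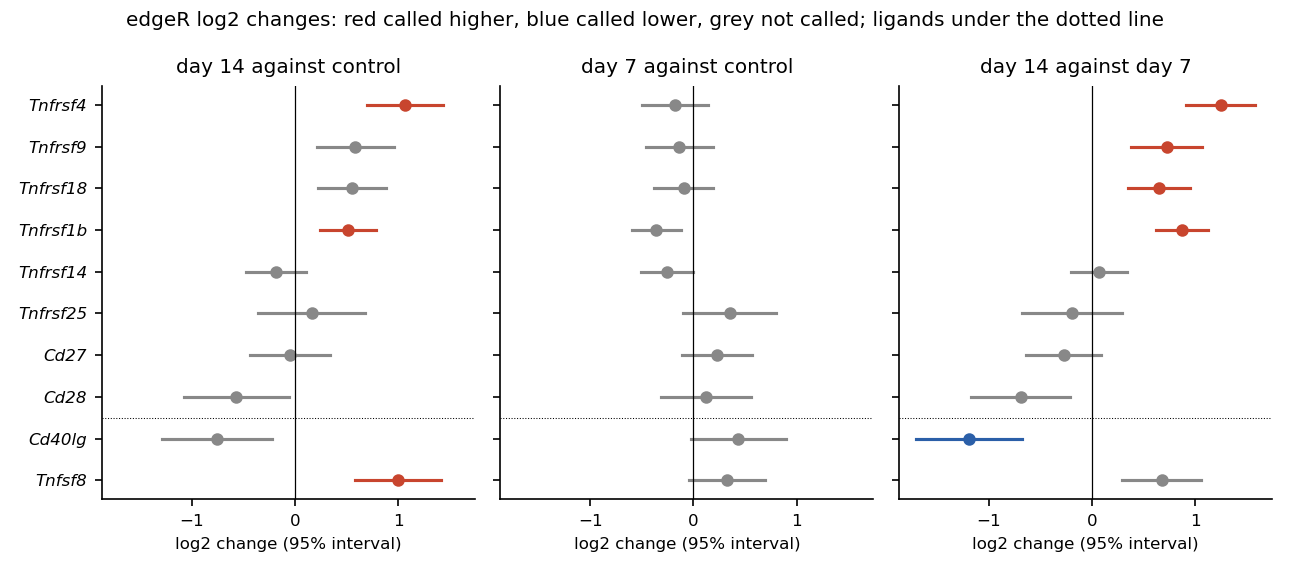
Log2 changes of the 10 members with 95% intervals in the 3 comparisons, from edgeR's quasi-likelihood fit. Red marks genes called higher and blue genes called lower at an adjusted p below 0.05, and the day 7 against control panel holds no called member.

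Of the 2 ligands, Cd40lg was called lower at day 14 against day 7 and Tnfsf8 higher at day 14 against control. Cd40lg, on the X chromosome, encodes CD40 ligand, through which helper T cells license B cells and dendritic cells. The controls held 213, 142, 308, 198 and 180 CPM of it, day 7 libraries between 176 and 397 CPM with a median of 278 CPM, and day 14 libraries 73.3, 171, 123 and 127 CPM. Every day 14 library lay below every day 7 library, by a narrow margin for day 14 library 2 and day 7 library 7. Cd40lg fell at day 14 against day 7 by 1.19 ± 0.25 on the log2 scale (edgeR adjusted p = 0.0291), to 0.438 of the day 7 level. Against control the change of -0.76 ± 0.25 was not called (adjusted p = 0.0983).

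Day 7 libraries 6 and 7, which hold abundant Y-linked transcripts, had the lowest Cd40lg of their group, at 197 and 176 CPM. In libraries with Y-linked transcripts below 10 CPM, Cd40lg averaged 122 CPM at day 14 (3 libraries), against 320 CPM at day 7 (5 libraries). In those with abundant Y-linked transcripts it was 127 CPM at day 14 (1 library) and averaged 186 CPM at day 7 (2 libraries). Fitted to the first set alone, Cd40lg was called lower at day 14 both against day 7 (log2 change -1.39, edgeR adjusted p = 0.00303) and against control (-0.93, adjusted p = 0.0437). That set includes day 14 library 1, low in Xist, which had the lowest Cd40lg of all libraries (73.3 CPM). The lower value against day 7 was not called when any of day 7 libraries 1, 3, 4 and 5 or day 14 libraries 1, 3 and 4 was left out, with log2 changes of -1.39 to -1.03 over all 16 omissions.

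Tnfsf8 encodes CD30 ligand. Controls held 21.3, 19.6, 27.9, 24.2 and 26.1 CPM, day 7 libraries 21.3 to 44.7 CPM with a median of 28.6 CPM, and day 14 libraries 41.3, 34.9, 55.1 and 59.0 CPM. All day 14 libraries lay above all controls, and day 7 library 2 reached into the day 14 range. Tnfsf8 rose at day 14 against control by 1.00 ± 0.20 on the log2 scale, or 2.00-fold (edgeR adjusted p = 0.0176). The difference from day 7 was 0.68 ± 0.18 and was not called (adjusted p = 0.0803). The call against control was lost without day 14 library 3 or library 4, where the adjusted p reached 0.0837. The ratio of Cd40lg to Tnfsf8 reads within a library was 8.67 ± 1.77 in controls, 9.64 ± 2.41 at day 7 and 2.76 ± 1.44 at day 14 (SD), and the highest day 14 ratio, 4.89, lay below the lowest of day 7, 6.16.

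**Figure D3:**
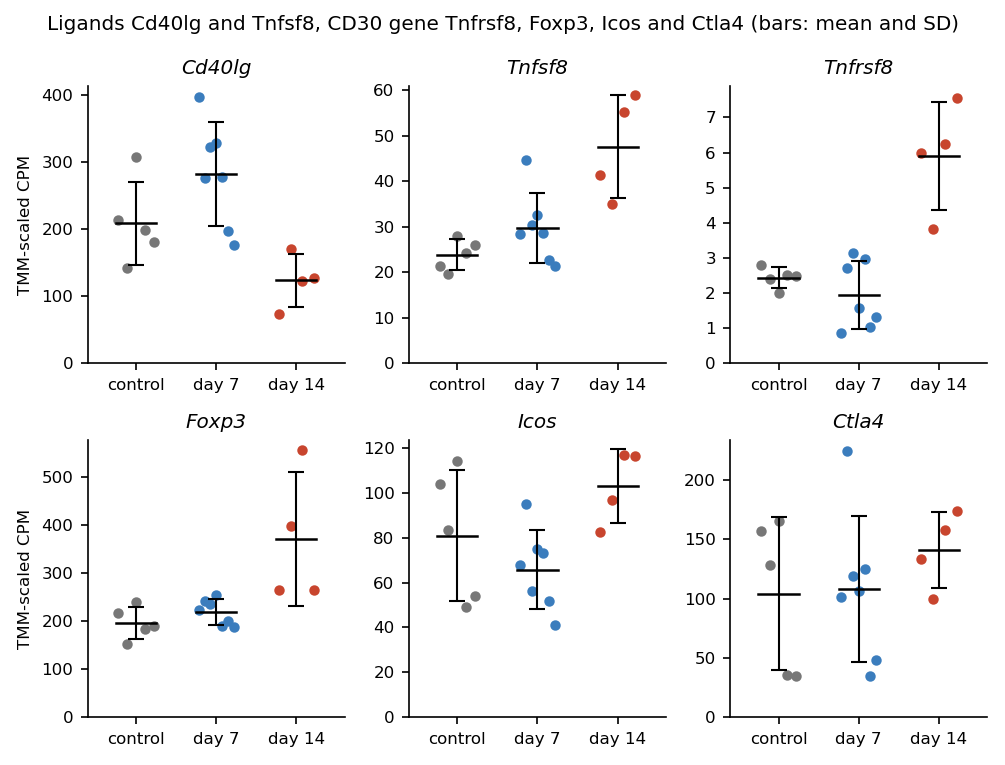
TMM-scaled CPM in each library (points), with mean and SD bars, of Cd40lg and Tnfsf8, of Tnfrsf8, which encodes the receptor of Tnfsf8, and of Foxp3, Icos and Ctla4. At day 14 Cd40lg is at its lowest and Tnfsf8, Tnfrsf8 and Foxp3 at their highest means.

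Across genes, levels were compared per kb of exon (GENCODE annotation of GRCm38). In controls Cd27 and Cd40lg led with 187 ± 46.6 and 167 ± 49.2 CPM per kb. Cd28 followed at 56.8 ± 21.5, Tnfrsf14 at 33.8 ± 6.83, Tnfrsf4 at 33.3 ± 10.3 and Tnfrsf18 at 29.2 ± 6.95 CPM per kb. Tnfrsf1b stood at 14.4 ± 2.48, Tnfrsf9 at 9.76 ± 1.68, Tnfrsf25 at 9.30 ± 4.06 and Tnfsf8 at 6.26 ± 0.893 CPM per kb. Neighbours in this order overlapped within 1 SD, except Cd40lg and Cd28, Tnfrsf18 and Tnfrsf1b, and Tnfrsf1b and Tnfrsf9. At day 14 the order had changed. Tnfrsf4, at 69.7 ± 9.48 CPM per kb, stood next to Cd40lg (98.7 ± 31.9) and above Tnfrsf18 (42.8 ± 6.71) and Cd28 (38.3 ± 3.81), and Tnfsf8 (12.5 ± 2.98) overlapped Tnfrsf9 (14.7 ± 2.96) and Tnfrsf25 (10.4 ± 1.41).

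**Figure D4:**
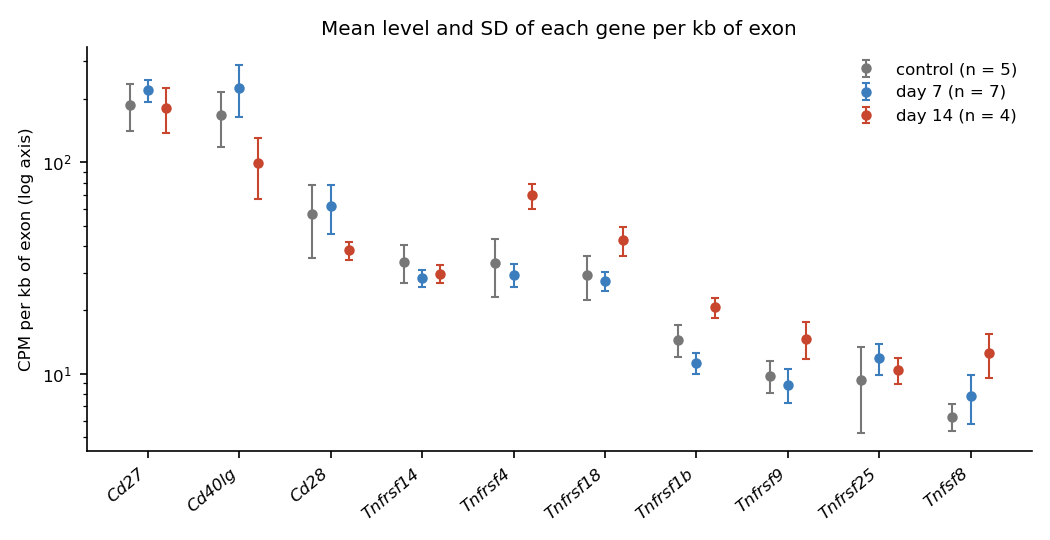
Mean CPM per kb of exon with SD on a log axis for each member in control, day 7 and day 14 libraries, ordered by the control mean. Cd27 stays near 200 CPM per kb in every group, while Tnfrsf4 at day 14 lies above Cd28.

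Day 14 against control asked what differed late after transplant. Of the 10 members 3 were called higher (Tnfrsf4, Tnfrsf1b and Tnfsf8) and 0 lower with edgeR's quasi-likelihood test, where 3.13% of all genes tested were called, 1.33% as higher and 1.8% as lower. Over all genes that split was 246 higher and 331 lower under TMM, 289 and 250 under RLE scaling, and 699 and 100 with library totals. At an unadjusted p below 0.05, 5 members were higher, as were 10.5% of all genes, and 2, Cd40lg and Cd28, were lower, as were 11.8% of all genes. DESeq2 called 6 members, of which Cd40lg was lower, and 8.42% of all genes. limma-voom called 4, all higher, and 5.44% of all genes. In 2 members, Tnfrsf4 and Tnfsf8, all day 14 libraries exceeded all controls, as in 5.24% of genes tested, and in 0 members were all lower, as in 2.85%. The median log2 change was 0.34 over the members, 0.12 over all genes tested and -0.15 over the 8440 genes of at least 10 CPM. Fitting only the 2 groups left 0 members called (4 of all genes), as did a fit with the share of reads outside gene models as a term (1 of all genes), with an adjusted p for Tnfrsf4 of 0.0727 and 0.388. Without control libraries 1 and 2 the 3 calls were Tnfrsf4, Tnfrsf1b and Tnfsf8.

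Day 7 against control asked what differed early. None of the 10 members was called with edgeR, where 0.0109% of genes were. At an unadjusted p below 0.05, 2 members, Tnfrsf1b and Tnfrsf14, were lower and 0 higher, where 12.7% of all genes were lower and 8.43% higher. DESeq2 called 1 member, Tnfrsf1b, as lower, and 12.3% of the genes it adjusted, while limma-voom called 0 members and 0.0163% of genes. Log2 changes of members ran from -0.36 to 0.44, the lowest for Tnfrsf1b and the highest for Cd40lg, whose 95% interval was -0.03 to 0.90. In 0 members did the groups not overlap, while in 0.988% of genes all day 7 libraries were higher and in 0.982% all were lower. The median was 0.01 over the members, 0.07 over all genes tested and -0.03 over the 8440 genes of at least 10 CPM.

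Day 14 against day 7 asked what differed between the times. Here 4 members were called higher (Tnfrsf4, Tnfrsf1b, Tnfrsf18 and Tnfrsf9) and Cd40lg lower, where 0.966% of all genes were called, 0.412% as higher and 0.553% as lower. The split of 76 higher and 102 lower became 87 and 72 under RLE scaling and 150 and 41 with library totals. At an unadjusted p below 0.05, 5 members were higher, as were 6.54% of all genes, and 2 were lower, as were 8.27%. DESeq2 called 6 members, adding Tnfsf8, and 5.72% of the genes it adjusted. limma-voom called 5 members and 1.03% of genes. In 3 members, Tnfrsf4, Tnfrsf18 and Tnfrsf1b, all day 14 libraries exceeded all day 7 libraries, as in 1.77% of genes, and in Cd40lg all were lower, as in 2.78%. The median log2 change was 0.36 over the 8 receptors of the list. It was 0.12 over all genes tested and -0.10 over the 8440 genes of at least 10 CPM. Tnfrsf4 and Tnfrsf1b were called whichever library was left out, with log2 changes of 1.18 to 1.33 and 0.81 to 0.93, while Tnfrsf18 was called in 6 and Tnfrsf9 in 4 of the 16 omissions, with log2 changes of 0.54 to 0.71 and 0.62 to 0.82. Tnfrsf18 was not called without control library 4, any day 7 library but the second, or day 14 libraries 1, 3 or 4. Tnfrsf9 was not called without control libraries 3 or 4, any day 7 library but the second, or any day 14 library. Both comparisons of day 14 use the same day 14 libraries.

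Foxp3, which defines regulatory T cells, was also higher at day 14. Controls held 216, 152, 239, 184 and 190 CPM of Foxp3 and day 7 libraries 187 to 255 CPM (median 222 CPM). Day 14 libraries, at 264, 397, 556 and 264 CPM, lay above them all. It rose at day 14 by 0.92 ± 0.19 against control and 0.76 ± 0.17 against day 7 on the log2 scale (edgeR adjusted p = 0.0194 and 0.0419). The call against control was lost without day 14 library 3 (adjusted p = 0.0878), and that against day 7 in 13 of 16 omissions. Of 14 regulatory T cell genes, a list without members, 4 were called higher and 0 lower against control (Foxp3, Ikzf2, Itgae and Klrg1; 10 higher and 0 lower at an unadjusted p below 0.05, and 9 called by DESeq2 and 5 by limma-voom in either direction), and 3 against day 7 (Foxp3, Ikzf2 and Klrg1). Against control 0 genes of the list were called without day 14 library 3, 1 without day 14 library 4 or control library 3, and 2 without control library 1 or day 7 libraries 1 or 5. Against day 7 the count was 0 without day 14 library 3 or day 7 libraries 1, 4 or 5. The calls of Ikzf2, Klrg1 and Itgae against control were lost in 3, 10 and 11 of 16 omissions. Summed over the list, controls held 766 to 1008 CPM, day 7 libraries 836 to 1226 CPM and day 14 libraries 1120 to 1771 CPM. In bulk RNA, more cells of a type and more RNA per cell cannot be told apart.

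Set against Foxp3 within each library, the ratios of the groups overlapped. The ratio of Tnfrsf18 to Foxp3 reads was 0.225 ± 0.0183 in controls, 0.192 ± 0.0226 at day 7 and 0.189 ± 0.0502 at day 14, and that of Tnfrsf9 was 0.136 ± 0.0137, 0.111 ± 0.0202 and 0.113 ± 0.0218 (SD). For Tnfrsf4 it was 0.233 ± 0.0633 in controls, 0.185 ± 0.0273 at day 7 and 0.283 ± 0.104 at day 14. For Tnfrsf1b it was 0.288 ± 0.0735 in controls, 0.199 ± 0.0336 at day 7 and 0.235 ± 0.0859 at day 14. Foxp3 was lowest of its group in day 14 libraries 1 and 4. There Tnfrsf4 stood at 98.6 and 98.1 CPM and Tnfrsf1b at 75.4 and 86.8 CPM. In day 14 libraries 2 and 3 Tnfrsf4 stood at 76.7 and 107 CPM and Tnfrsf1b at 68.4 and 84.5 CPM. Over the 16 libraries Foxp3 correlated with Tnfrsf18, Tnfrsf9, Tnfrsf4 and Tnfrsf1b at r = 0.84, 0.80, 0.72 and 0.55, and after removal of group means at 0.69, 0.64, 0.22 and -0.01. For Tnfrsf14 these values were -0.46 and -0.61. Mki67, a gene of dividing cells, correlated with Tnfrsf1b at 0.71 and, after removal of group means, at 0.69. The 12 mitosis transcripts summed to 1572 ± 1797 (control), 406 ± 196 (day 7) and 1276 ± 742 CPM (day 14, SD). The part of regulatory or dividing T cells in the rise of the receptors was not tested. The follicular helper list, 13 genes of the helper cells of germinal centres, had 4 called higher and 0 lower against control, Slamf6, Maf, Cxcr5 and Pdcd1, with log2 changes of 0.93, 1.31, 1.53 and 1.84. Without day 14 library 3, day 14 library 4 or control library 3, 2 genes of the list were called. Against day 7, 2 were called higher and 0 lower, Maf and Pdcd1, and 0 were called without day 14 library 3, day 14 library 4 or day 7 library 5. Of 12 naive T cell genes, edgeR called 0 higher and 2 lower against control (Ccr7 and Dapl1). Against day 7 it also called 0 higher and 2 lower (Foxp1 and Dapl1). At its unadjusted p below 0.05, 1 was higher and 6 lower against control, and 2 higher and 7 lower against day 7. The naive calls were lost in 8 to 14 of 16 omissions. The part of naive cells in the levels of Cd27 and Cd28 was not tested.

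**Figure D5:**
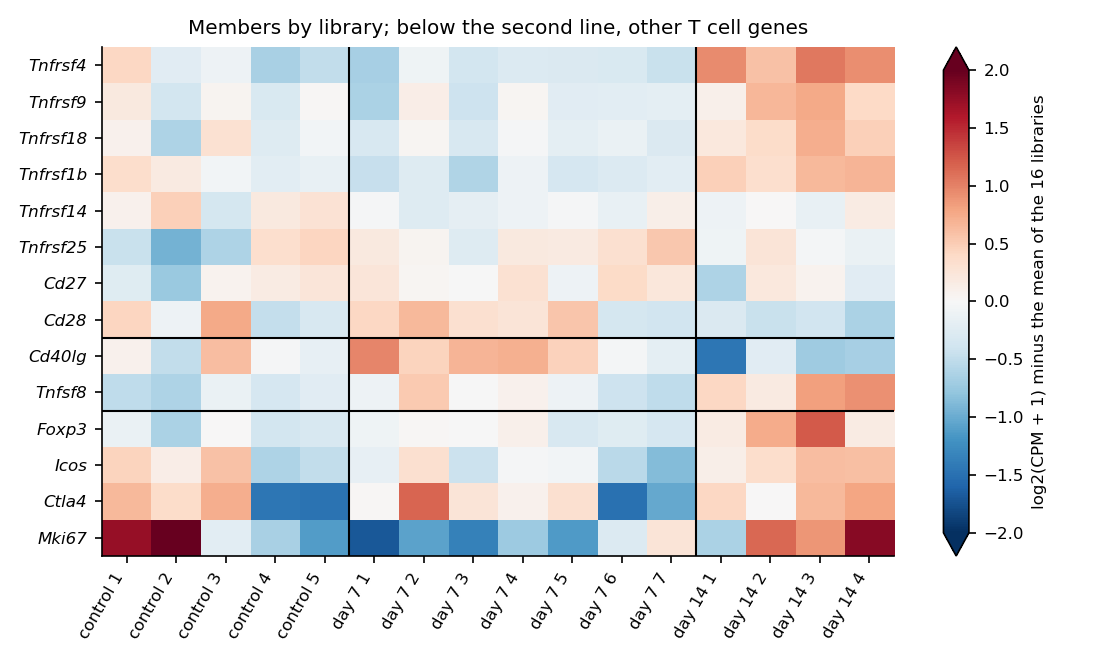
Log2(CPM + 1) of each member minus its mean over the 16 libraries, with Foxp3, Icos, Ctla4 and Mki67 below the second line; columns are libraries by group. Tnfrsf4, Tnfrsf1b and Tnfsf8 are red across day 14, and Cd28, Icos and Ctla4 are blue in control libraries 4 and 5 and day 7 libraries 6 and 7.

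Some ligands and receptors of the members were sparse. Tnfrsf8 encodes CD30, the receptor of Tnfsf8, and lies beside Tnfrsf1b, with 20266 bases and 0 protein-coding genes between them. It was scarce: controls held 1.99 to 2.81 CPM, day 7 libraries 0.859 to 3.13 CPM and day 14 libraries 3.83 to 7.56 CPM. Tnfrsf8 rose at day 14 against day 7 by 1.60 ± 0.36 on the log2 scale (edgeR adjusted p = 0.0398), a call lost in 9 of 16 omissions, and its change of 1.27 ± 0.39 against control was not called (adjusted p = 0.0751). The OX40 ligand gene Tnfsf4 reached at most 1.61 CPM in any library, the 4-1BB ligand gene Tnfsf9 at most 6.28 CPM and the gene of CD40, Cd40, at most 2.76 CPM. The CD27 ligand gene Cd70 and the GITR ligand gene Tnfsf18 did not pass the expression filter. Other partners were present: the TNFR2 ligand genes Tnf and Lta averaged 20.8 and 17.6 CPM at day 14, against 23.0 and 14.7 CPM in controls, and the HVEM ligand gene Tnfsf14 averaged 15.5 CPM at day 14, against 11.6 CPM in controls. Btla, whose product binds HVEM, averaged 148 CPM at day 14, against 108 CPM in controls, and the CD28 ligand gene Cd86 averaged 7.02 CPM at day 14, against 11.1 CPM in controls.

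Of 19 other TNF receptors tested, 1 was called lower at day 14 against control: Tnfrsf1a, which encodes the death-domain TNF receptor TNFR1. Group means were 60.7 ± 5.27 (control), 49.2 ± 9.38 (day 7) and 38.8 ± 8.07 CPM (day 14), a log2 change of -0.65 at day 14 against control (edgeR adjusted p = 0.0417), while its relative Tnfrsf1b was higher. Of 12 other TNF ligands tested, 1 was called lower in that comparison: Fasl, the ligand of the death receptor Fas. Its 4 day 14 libraries held 9.95 to 14.3 CPM and the 5 control libraries 13.6 to 34.7 CPM, with a log2 change of -0.92 (edgeR adjusted p = 0.0445). Leaving out 1 library ended the Tnfrsf1a call in 7 and the Fasl call in 11 of 16 omissions. limma-voom called 0 of these ligands and DESeq2 called 3.

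Of 45 genes for TRAF adaptors, the NF-kappaB core and CD28 signalling, 0 were called with edgeR in each comparison, where the shares of all genes were those given above. At an unadjusted p below 0.05, 2 were higher and 7 lower at day 14 against control, 6 higher and 1 lower at day 7 against control, and 0 higher and 12 lower at day 14 against day 7, where 6.54% of all genes were higher and 8.27% lower. DESeq2 called 1, 3 and 3 of them and limma-voom 0, 0 and 1 in the same order of comparisons. The most abundant gene of each list was Tab2 (TRAF adaptors), Tnfaip3 (NF-kappaB core) and Lcp2 (CD28 signalling), with log2 changes of -0.01, -0.69 and 0.29 at day 14 against control. Of the 7 survival genes edgeR called Bcl2, which blocks the mitochondrial path to cell death. At day 14 against control DESeq2 and limma-voom called 2 of them each, at day 14 against day 7 DESeq2 called 1 and limma-voom 0, and at day 7 against control DESeq2 called 1, edgeR 0 and limma-voom 0. Bcl2 means were 342 ± 79.3 (control), 326 ± 44.4 (day 7) and 554 ± 158 CPM (day 14), with log2 changes at day 14 of 0.70 against control and 0.77 against day 7 (edgeR adjusted p = 0.04998 and 0.0419). These calls lay at the threshold and were lost in 14 and 12 of 16 omissions.

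Among 10 relatives and partners of CD28, 0 were called in each comparison with edgeR. At day 14 against control 1 was higher and 2 were lower at an unadjusted p below 0.05, with 2 called by DESeq2 and 1 by limma-voom. Cd2, an adhesion and costimulatory receptor and the most abundant of them, had a log2 change of -0.41 in that comparison (edgeR adjusted p = 0.0581). Icos, an inducible relative of CD28, averaged 80.9 ± 29.0 (control), 65.6 ± 17.6 (day 7) and 103 ± 16.5 CPM (day 14). Ctla4, which competes with CD28 for its ligands, averaged 104 ± 64.2, 108 ± 61.7 and 141 ± 32.1 CPM in the same order. The ratio of Cd28 to Ctla4 reads was 4.35 ± 2.22 in controls, 4.17 ± 1.57 at day 7 and 1.74 ± 0.500 at day 14 (SD), and the day 14 range, 1.17 to 2.33, overlapped the others only at its upper end.

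The genes most like each called member over the 16 libraries were found by Pearson's r of log2(CPM + 1) among 8099 genes, as a description of libraries that share their groups. For Tnfrsf4 they were Lamc1, Neb and Cish (r = 0.93, 0.92 and 0.92), and for Tnfrsf1b Vars, Fam129a and Serpina3g (0.88, 0.88 and 0.87). Tnfrsf9 was most like Penk, Cish and Myo1e (0.90, 0.89 and 0.88), and Tnfrsf18 most like Cxcr3, Penk and Il2rb (0.89, 0.89 and 0.88). Tnfsf8 was most like Dst, Nt5e and Farp1 (0.94, 0.94 and 0.92), and Cd40lg most like Trim33, Spice1 and Azi2 (0.92 each). Il2rb, the beta chain shared by the interleukin-2 and interleukin-15 receptors, was the 1 gene that edgeR called among 12 activation genes at day 14, with means of 107 ± 25.8 (control), 105 ± 12.4 (day 7) and 206 ± 24.7 CPM (day 14) and a log2 change of 0.94 at day 14 against control (edgeR adjusted p = 0.00812). In that comparison DESeq2 called 2 of the list and limma-voom 1. At an unadjusted p below 0.05, 1 was higher and 3 were lower. The list's median log2 change was -0.28, against 0.12 over all genes tested and -0.15 over the 8440 of at least 10 CPM.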

How the data were processed

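The authors deposited 1 table of raw read counts per gene for 16 libraries, which the submitters' processing notes tie to mm10, HTSeq 0.6.1, cutadapt 1.8.1 and bcl2fastq 2.20.0.422; aligner, annotation and strand setting are not given in the sources used here. Its 5 lines that name no gene held mainly reads outside gene models (47.1% to 69.8% of a library) and stayed out of library sizes and tests. No 2 columns were identical. Columns were matched to samples by the code in each sample's description, and 0 sample columns were left unused.

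Counts were tested with edgeR 4.0.16 in R 4.3.3 (limma 3.58.1): TMM, filterByExpr, 1 quasi-likelihood fit of 3 groups over all 16 libraries, two-sided, Benjamini-Hochberg adjustment over 18430 genes, threshold 0.05. The SE is the absolute log2 change over the square root of F. Alternatives were RLE scaling, library totals, other filters, DESeq2 1.42.0, limma-voom, only the compared groups, a replicate block, omitted libraries and covariates; the set of libraries with few Y-linked transcripts was chosen after seeing the data. On simulated data with 200 changed genes, the test recovered 72% to 78% of 2-fold and 97% to 99% of 4-fold changes. It made 4 to 6 false calls in a comparison. A 2-fold change could therefore go uncalled. Positions are GENCODE's for GRCm38, which mm10 names. Figures used Python 3.11.15 and Matplotlib 3.10.9.

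The members and the 22 other gene lists were chosen with earlier results of these data known. Of 237 list genes 236 were in the table, 2 under an older symbol. Named were all members, the 3 genes most like each called member (mean of at least 10 CPM), and Foxp3, Ctla4, Icos, Mki67 and Cd4. Outside the cell marker lists, up to 4 called genes per list and comparison were named, or else the most abundant. Called genes of the regulatory, follicular helper and naive lists are given above. Of the other marker lists, edgeR called Cd79a (B cell), H2-Aa, H2-Ab1, H2-Eb1 and Cd74 (MHC class II) lower at day 14 against control. It also called S100a8, S100a9 and Ngp (neutrophil) lower there, and Mpo and Elane (neutrophil) higher against day 7. These calls were lost in 6 to 14 of 16 omissions. Ligands and receptors of members named beside them were chosen after their values were seen. P-values measure the spread between libraries, and nothing in the labels states separate mice beyond the design's counts.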

Additional observations from a re-analysis of the deposited data

Results flagged for a closer look

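For 5 members the change from control differed between day 14 and day 7, as tested by the contrast of day 14 with day 7 in edgeR's fit. The difference of log2 changes, day 14 minus day 7, was 1.25 for Tnfrsf4, 0.87 for Tnfrsf1b, 0.72 for Tnfrsf9, 0.65 for Tnfrsf18 and -1.19 for Cd40lg (adjusted p = 0.00126, 0.00244, 0.041, 0.0394 and 0.0291). These are the calls of that contrast given above, where 0.966% of all genes were called. Those of Tnfrsf9, Tnfrsf18 and Cd40lg were lost in 12, 10 and 7 of 16 omissions, and those of Tnfrsf4 and Tnfrsf1b in 0. Of the 30 sets of values checked, 1 for each member and group, 0 held a library that stood apart from the rest of its group by Dixon's criterion. That criterion looks for a single library and can miss 2 that stand apart together. Day 7 libraries 6 and 7 held 249 and 242 CPM of Cd28, against at least 380 CPM in libraries 1 to 5. For Cd40lg they held 197 and 176 CPM, against at least 276 CPM.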

How the results depend on the processing

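At day 14 against control 3 members were called, and RLE scaling and library totals called 5, DESeq2 6, and fits of only the 2 groups, with a replicate block or with the share of reads outside gene models each 0. Leaving out single libraries gave 1 to 5, with 1 without day 14 library 3 or 4 and 5 without day 14 library 2. Over all genes the count was 577, and 381 without a filter, 1551 with DESeq2, 1003 with limma-voom, 4 in only the 2 groups, 46 with the block, 1 with the share as a term, 942 without control libraries 1 and 2, and 65 to 1458 with single libraries left out. At day 7 against control 0 members were called, 1 with DESeq2, and 0 to 1 with single libraries left out, 1 (Tnfrsf1b) without control library 5. All genes gave 2, and 1603 with DESeq2, 4 in only the 2 groups, 35 with the block, 0 without control libraries 1 and 2, 327 with a Y-linked term, 138 in libraries with few Y-linked transcripts, 0 with the share as a term and 0 to 1455 with libraries left out. At day 14 against day 7, 5 members were called, 3 with the block and 2 to 6 with libraries left out; 2 were called without any of day 7 libraries 1, 3, 4 and 5 or day 14 libraries 1, 3 and 4, and 3 without control library 4 or day 7 library 6 or 7. All genes gave 178, and 707 with DESeq2, 712 in only the 2 groups, 28 with the block, 838 without control libraries 1 and 2, 972 with a Y-linked term, 556 in libraries with few Y-linked transcripts, 85 with the share as a term and 25 to 531 with libraries left out. The labels state no pairing by replicate number. Deviations of same-numbered libraries from their group means correlated at -0.34 to 0.30 over 13 pairs, of which 3 exceeded 0.1. Differently numbered libraries were not compared, so these values do not decide whether the numbers pair libraries. The cause of these shifts was not tested. Library totals moved the median of all genes at day 14 against control to 0.32 from 0.12 under TMM.

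Of the changes that turned direction, only those of Mki67 without control libraries 1 and 2 and in libraries with few Y-linked transcripts were called (adjusted p = 0.0468 and 0.0421). At day 14 against control, library totals gave Tnfrsf14 0.013, Cd27 0.15 and Cd4 0.12; the share as a term gave Cd27 0.38, Ctla4 -0.12 and Cd4 0.068; without control libraries 1 and 2 Tnfrsf25 was -0.12 and Mki67 1.66; libraries with few Y-linked transcripts gave Tnfrsf25 -0.10 and Mki67 1.23; and Mki67 was 0.25 with limma-voom and 0.64 with a Y-linked term. At day 7 against control, Tnfrsf4 was 0.058 without control libraries 1 and 2; the share as a term gave Tnfrsf9 0.012, Tnfrsf18 0.021 and Ctla4 -0.36; a Y-linked term gave Ctla4 -0.022; and libraries with few Y-linked transcripts gave Tnfrsf4 0.030, Tnfrsf25 -0.076 and Cd27 -0.092. At day 14 against day 7 the block gave Tnfrsf25 0.045 and Ctla4 -0.043, and libraries with few Y-linked transcripts gave Ctla4 -0.040. With single libraries left out, day 14 against control ran from -0.18 to 0.091 for Cd27, -0.21 to 0.086 for Cd4 and -0.76 to 0.64 for Mki67. In the same way day 7 against control ran from -0.23 to 0.36 for Ctla4, -0.21 to 0.065 for Tnfrsf18 and -0.25 to 0.012 for Tnfrsf4, and day 14 against day 7 from -0.0025 to 0.11 for Tnfrsf14. Of 756 list counts under alternatives, 571 stayed within 1.5 times the main count and 185 moved. A count of 0 that stayed 0 was placed among the 571. At day 7 against control every list had a main count of 0, so the 571 do not measure how stable the calls were.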

Other observations

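Cd28, Icos and Ctla4 were low in the same libraries before day 14. Control libraries 4 and 5 held 226 and 252 CPM of Cd28, 49.2 and 53.9 CPM of Icos and 36.1 and 35.1 CPM of Ctla4, against at least 294, 83.3 and 128 CPM in control libraries 1 to 3. Day 7 libraries 6 and 7 held 249 and 242 CPM of Cd28, 51.8 and 41.2 CPM of Icos and 34.7 and 48.3 CPM of Ctla4, against at least 380, 56.3 and 101 CPM in day 7 libraries 1 to 5. At day 14 Cd28 stood at 203 to 259 CPM while Icos stood at 82.6 to 117 CPM and Ctla4 at 99.9 to 174 CPM. Tnfrsf25 ran the other way in controls, at 30.0 and 32.1 CPM in libraries 4 and 5 and at most 17.0 CPM in the others. The libraries were set apart here after their values were seen, and no test was made.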
